A study of Mus musculus with 6 samples.

Results

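Interferon-stimulated genes were followed here in the liver of mice that lack alkaline sphingomyelinase, through 35 named genes that were all found by symbol among the 23415 genes of the deposited table. The authors tested 11515 genes, 33 of the 35 among them. Mx1 and Oas1g were not tested, and their values are given without a call. The 6 libraries came from liver of C57BL/6 mice, 3 of the knockout (numbered 82, 84 and 85, read from the letter K in the sample names) and 3 of the wildtype (numbered 81, 83 and 90, from the letter W). The missing gene, Enpp7, encodes a sphingomyelin-splitting enzyme of the intestine. In liver it does not check the genotype labels here: Enpp7 stood at 0.141 FPKM in knockout liver and 0.0541 FPKM in wildtype liver and was not tested. Age, sex, infection status and the way the gene was deleted are not given in the sources used here. The design text speaks of intestine while the sample labels speak of liver. The 6 hepatocyte markers on a list summed to 31978.5 FPKM in knockout liver and 24893.4 FPKM in wildtype liver. Of these 3 had a larger value in knockout liver and 3 a smaller one. Much of the gap was Fgb, at 5949 FPKM in knockout liver and 2339 FPKM in wildtype liver. The 7 intestinal markers summed to 97.4 FPKM in knockout liver and 84.8 FPKM in wildtype liver, mostly through 2 of them. Fabp2, a fatty acid carrier of enterocytes, stood at 42.9 FPKM in knockout liver and 54.7 FPKM in wildtype liver, and Tff3, a secreted goblet cell peptide, at 48.8 FPKM in knockout liver and 23.9 FPKM in wildtype liver. Cdx2, a transcription factor of the gut lining, stood at 0.0290 FPKM in knockout liver and 0.0333 FPKM in wildtype liver.

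Interferons are cytokines released when cells detect viral or bacterial nucleic acid. Type I interferons signal through IFNAR1 and IFNAR2 to a complex that includes STAT2 and IRF9 and binds the interferon-stimulated response element (ISRE). Interferon gamma signals through its own receptor to factors that bind the gamma-activated site (GAS). Both induce a shared set of genes that sense RNA, block viral replication, damage the vacuoles of intracellular microbes and limit the response itself. In liver, hepatocytes, Kupffer cells and endothelium can all make these transcripts.

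None of the 33 tested interferon-stimulated genes followed here, called members below, passed the authors' test. As deposited, 28 of the 33 tested members had a larger value in knockout liver, against 49.9% of all tested genes, and their median log2 ratio of knockout over wildtype was 0.23. This direction depends on the scaling. With equal summed FPKM in both groups 17 of the 33 ratios were above 0, and the median was 0.040. That scaling moved the median of all tested genes to -0.20, so the members' median stood 0.24 above it, as in the deposited values. With quantile normalization 29 of the 33 ratios were above 0, and 26 with a sum that leaves out a list of acute phase genes. Irf1, Zbp1 and Oas2 had the largest ratios among tested members, at 0.96, 0.92 and 0.77. The lowest was that of Gbp7, at -0.29. In bulk tissue fewer cells of a type and less RNA per cell cannot be told apart. Each group has 1 expression value in FPKM (a read level scaled to transcript length and sequencing depth), so the spread between mice is unknown here. The error after a ratio is the standard error (SE) that the authors' z statistic implies. Calls rest on a q under 0.05 in the authors' deposited table. They took in 1.08% of all tested genes, 0.573% higher and 0.504% lower in knockout liver, against 0 of the 33 tested members.

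Promoter sequences show a trait that many members share apart from their values. RefSeq promoter windows of 300 bases (250 before and 50 after the start site, build GRCm38.p6) matched 24 of the 35 members by symbol. The ISRE was searched on both strands as GAAA, 2 bases of any kind and GAAA, and the GAS as TTC, 3 bases of any kind and GAA, which reads alike on both strands. Matches may overlap each other. An ISRE match lay in the window of 17 of the 24 members. Per promoter this was 60.7% of the members' 28 windows, against 3.44% of all 32851 windows. GAS matches lay in 7 of the 24 members, which is 25% of the members' windows against 8.3% of all windows. Related genes outside the members hold these matches too. Of 18 windows of the interferon genes themselves 61.1% had an ISRE match and 55.6% a GAS match. Other lists had lower shares, down to 0 of 5 windows of ISG15 conjugation enzymes for either match. On a list of other guanylate-binding proteins and immunity-related GTPases 66.7% of 9 windows had an ISRE match and 44.4% a GAS match. Of 86 windows of other interferon-stimulated genes 34.9% had an ISRE match and 10.5% a GAS match. A match is a string of letters and does not show that a factor binds there.

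The windows below are shown because they hold these matches in members that the results describe, with the matching letters in capitals, 5′ to 3′ on the gene's strand, and Socs3 is added as the called feedback gene of the pathway.

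Isg15 (chr4:156200863-156200908, minus strand): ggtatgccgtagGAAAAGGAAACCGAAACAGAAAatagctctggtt

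Bst2 (chr8:71537575-71537620, minus strand): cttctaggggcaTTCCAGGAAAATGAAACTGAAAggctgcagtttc

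Ifit1 (chr19:34640773-34640825, plus strand): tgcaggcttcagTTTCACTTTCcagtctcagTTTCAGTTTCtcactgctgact

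Ifit3 (chr19:34583361-34583428, plus strand): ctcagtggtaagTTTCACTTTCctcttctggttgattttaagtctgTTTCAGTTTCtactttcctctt

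Oas1a (chr5:120907526-120907557, minus strand): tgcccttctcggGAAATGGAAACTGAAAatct

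Oas1g (chr5:120887614-120887643, minus strand): tgcccttctcggGAAATGGAAACTGAAAat

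Gbp2 (chr3:142620592-142620625, plus strand): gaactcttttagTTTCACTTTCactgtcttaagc

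Irgm1 (chr11:48871423-48871462, minus strand): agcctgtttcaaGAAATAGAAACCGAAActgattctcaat

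Igtp (chr11:58199499-58199543, plus strand): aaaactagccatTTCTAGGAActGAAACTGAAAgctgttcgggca

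Irgm2 (chr11:58214890-58214934, plus strand): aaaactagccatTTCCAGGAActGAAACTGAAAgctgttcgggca

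Irf1 (chr11:53769912-53769944, plus strand): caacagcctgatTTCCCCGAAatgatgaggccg

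Socs3 (chr11:117969500-117969532, minus strand): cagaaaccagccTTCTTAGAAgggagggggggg

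Isg15 carries 3 overlapping ISRE matches, and 8 members carry 2 or more. In Bst2 a GAS match runs into the first of 2 ISRE matches. Igtp and Irgm2, neighbours on chromosome 11, hold a GAS followed by an ISRE in windows that are the same at 44 of 45 bases. The 30 bases shown of Oas1g recur in Oas1a. Irf1 has a GAS match 90 bases before its start site (position -90) and no ISRE match in either of its windows. Ddx58 and Ifih1 have their ISRE match after the start site.

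**Figure D1:**
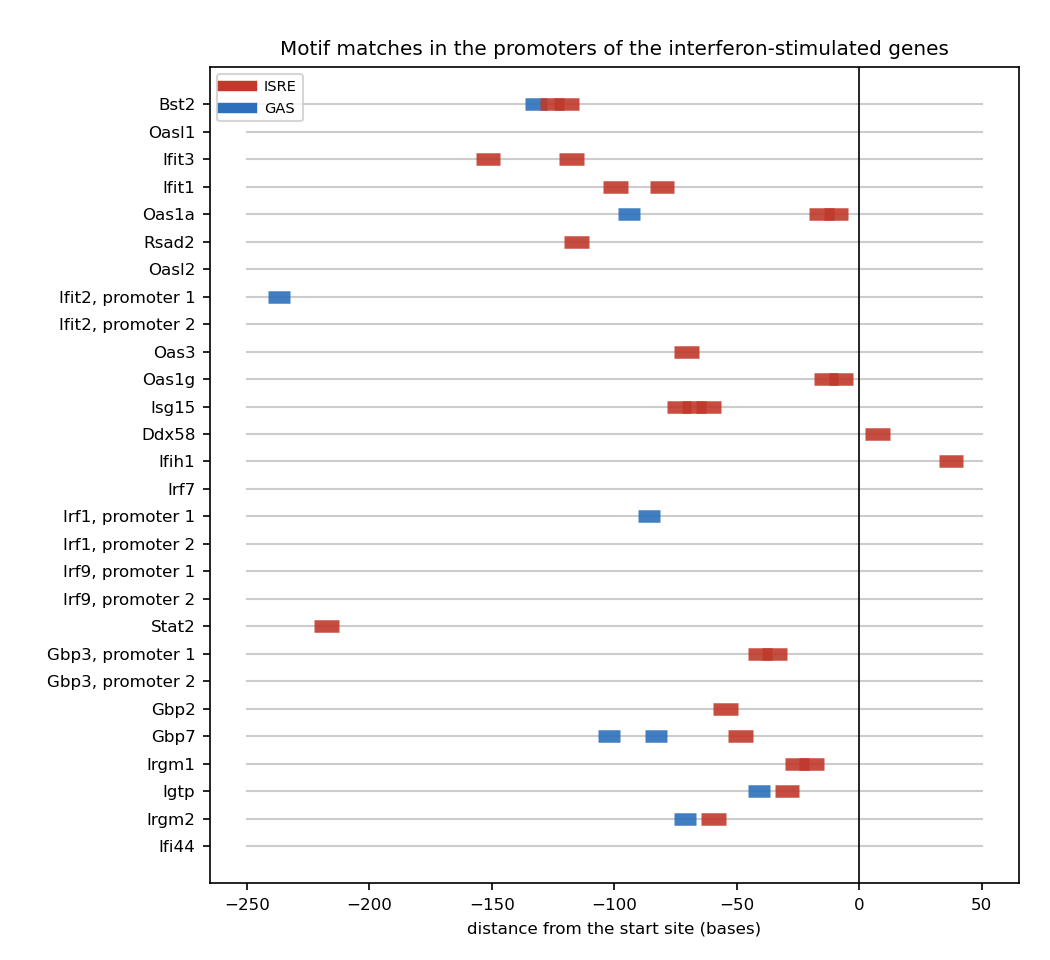
Matches of the ISRE (red) and GAS (blue) motifs in the RefSeq promoter windows of 24 members, by distance in bases from the start site; genes with 2 windows have 2 lines. ISRE matches before the start site begin between -222 and -12.

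The 16 tested members with an ISRE match had a median log2 ratio of 0.24 and ranged between -0.29 and 0.61. The 7 tested members that have a window but no ISRE match had a median of 0.15 and ranged between -0.01 and 0.96, with Irf1 at the top. The 10 tested members without a window, Zbp1 and Oas2 among them, had a median of 0.33 and ranged between 0.05 and 0.92. The medians by motif therefore leave out part of the members. The ranges overlap, and no test was made.

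Expression levels differed far more between members than between genotypes. Bst2, tetherin, which holds budding virus particles at the cell surface, stood at 404 FPKM in knockout liver and 332 FPKM in wildtype liver. It made up 52.7% of the members' summed FPKM in knockout liver and 52.4% in wildtype liver. Iigp1 followed at 72.9 FPKM in knockout liver and 64.5 FPKM in wildtype liver, and Irf7 at 36.2 FPKM in knockout liver and 32.0 FPKM in wildtype liver. At the low end were Mx1, at 0.504 FPKM in knockout liver and 0.320 FPKM in wildtype liver, and Oas1g, at 0.552 FPKM in knockout liver and 0.484 FPKM in wildtype liver. Of the 35 members 9 had at least 10 FPKM in both groups, 19 lay between 1 and 10 FPKM in both, and 3 lay under 1 FPKM in both. Without Bst2 the members summed to 362 FPKM in knockout liver and 301 FPKM in wildtype liver, which is 1.20-fold.

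**Figure D2:**
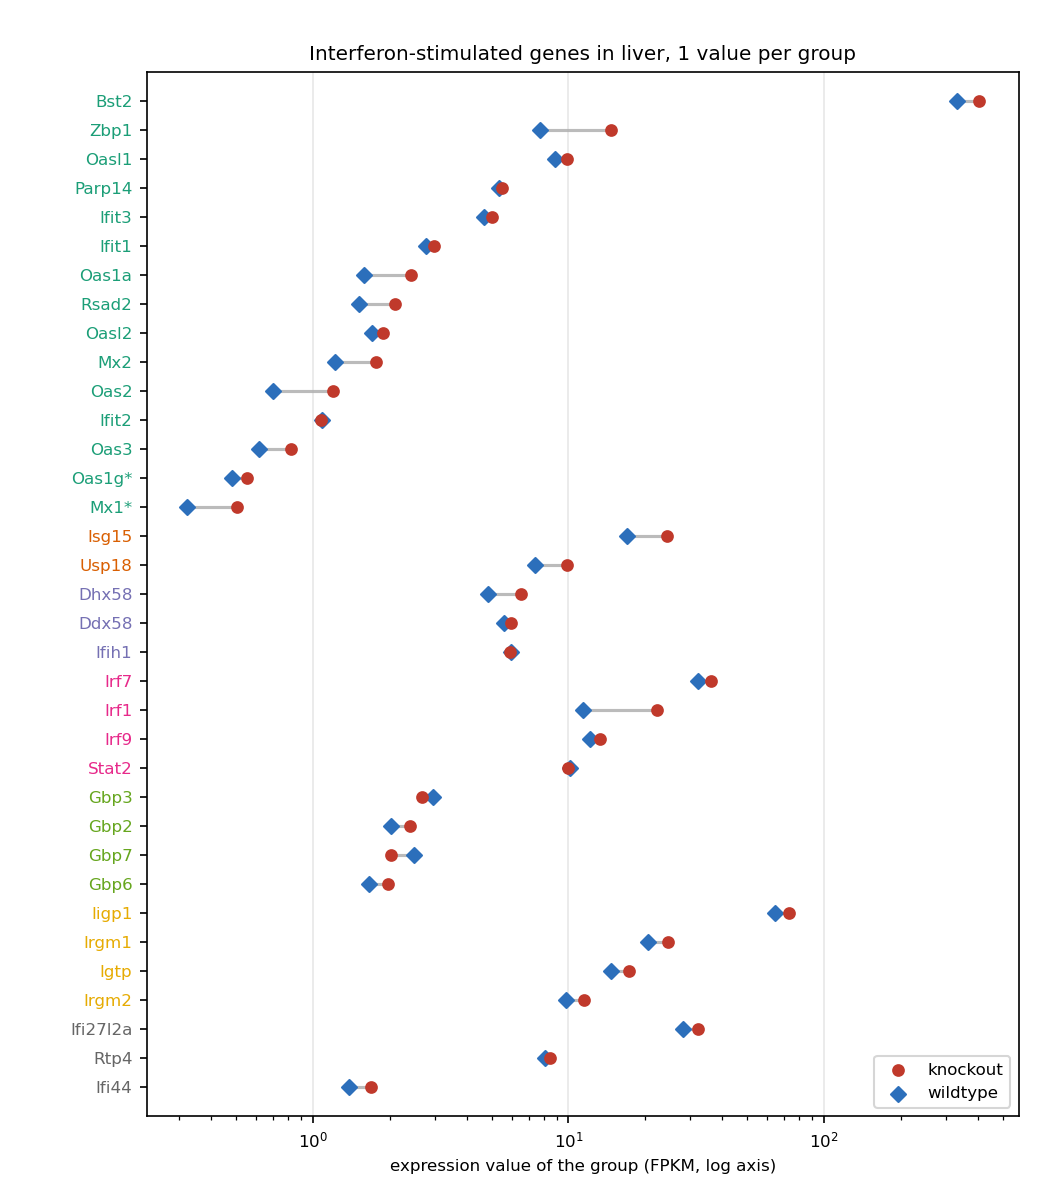
FPKM of each of the 35 members in knockout liver (red circles) and wildtype liver (blue diamonds), 1 value per group, on a log axis, ordered by role (label colours) and level; an asterisk marks the 2 members that were not tested. Bst2 lies at 404 and 332 FPKM, and for most members the 2 symbols lie close together beside the span between genes.

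The cytokines themselves were near or at the floor. Of 21 interferon genes on a fixed list 17 were found in the table and 0 were tested. In both groups 15 of them are listed at 0, Ifnb1 and the alpha interferons among them. Ifng, interferon gamma, is listed at 0.0198 FPKM in knockout liver and at 0 in wildtype liver.

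Of the interferon receptor genes 5 were tested, and 0 passed, with 0 at an unadjusted p under 0.05 in the authors' deposited table. All 5 values were larger in knockout liver. Ifngr1, the ligand-binding chain for interferon gamma, stood at 9.90 FPKM in knockout liver and 6.98 FPKM in wildtype liver (log2 ratio 0.50 ± 0.26 SE, p = 0.0557 in the authors' deposited table). Ifnar2, a chain of the type I receptor, stood at 79.7 FPKM in knockout liver and 62.4 FPKM in wildtype liver. Ifnar1, its partner, differed little, at 6.23 FPKM in knockout liver and 6.12 FPKM in wildtype liver.

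Of 7 tested JAK and STAT transducers 0 passed, and 0 had an unadjusted p under 0.05 in the authors' deposited table. Stat5b, a transducer of growth hormone in liver, had the smallest p of these, at 9.98 FPKM in knockout liver and 8.06 FPKM in wildtype liver. Stat2 and Irf9, parts of the type I complex, are members. Stat2 stood at 9.98 FPKM in knockout liver and 10.1 FPKM in wildtype liver, and the 95% interval of its log2 ratio ran between -0.47 and 0.42. Irf9, the DNA-binding part, stood at 13.3 FPKM in knockout liver and 12.1 FPKM in wildtype liver, with an interval between -0.43 and 0.69. Both intervals lie inside a 2-fold change in either direction.

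Irf1 (chromosome 11, 53770014 to 53778374, mm10) had a larger ratio than the other 3 transcription factors among the members, a difference that was not tested. It encodes a factor that interferon gamma induces and that interleukin-6 and NF-kB signals induce too. It stood at 22.3 FPKM in knockout liver and 11.4 FPKM in wildtype liver, which is 1.95-fold (log2 ratio 0.96 ± 0.30 SE). Its p was 0.00141 and its q 0.0990 in the authors' deposited table, so it did not pass, and its 95% interval ran between 0.37 and 1.55. With this error a log2 ratio of 1.04 would have been needed. Irf7, which drives type I interferon genes and is itself induced by interferon, had a ratio of 0.18 ± 0.26 (SE). Of the 5 other tested interferon regulatory factors 0 passed and 2 had an unadjusted p under 0.05 in the authors' deposited table. These were Irf5, a factor of macrophages, at 9.66 FPKM in knockout liver and 6.27 FPKM in wildtype liver, and Irf8, a factor of myeloid cells, at 4.83 FPKM in knockout liver and 3.19 FPKM in wildtype liver.

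Ddx58 and Ifih1, receptors that detect viral RNA in the cytosol, had values close to wildtype. Ddx58 (RIG-I) stood at 5.96 FPKM in knockout liver and 5.59 FPKM in wildtype liver, and Ifih1 (MDA5) at 5.88 FPKM in knockout liver and 5.93 FPKM in wildtype liver. Dhx58 (LGP2), a regulator of both, stood at 6.53 FPKM in knockout liver and 4.84 FPKM in wildtype liver (log2 ratio 0.43 ± 0.27 SE). None of the 3 passed or had an unadjusted p under 0.05 in the authors' deposited table. Of 12 tested other sensors and adaptors 0 passed and 0 had such a p, and their median log2 ratio was 0.05. Tmem173 (STING), an adaptor for cytosolic DNA, had the smallest p of the tested ones, at 1.86 FPKM in knockout liver and 1.24 FPKM in wildtype liver.

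The antiviral effectors formed the largest class, with 15 members, 13 of them tested. None passed, 12 of the 13 ratios were above 0, and their median was 0.28. Zbp1 (chromosome 2, 173206612 to 173218922, mm10), a sensor of Z-form nucleic acid that triggers cell death, stood at 14.7 FPKM in knockout liver and 7.76 FPKM in wildtype liver. Its log2 ratio of 0.92 ± 0.39 (SE) had p = 0.0182 and q = 0.576 in the authors' deposited table. Zbp1 and Irf1 were the 2 members with an unadjusted p under 0.05, both higher in knockout liver. Of all tested genes 5.29% had such a p, 2.82% higher and 2.47% lower in knockout liver. At q under 0.1 Irf1 alone among the members would be called higher, beside 0.738% of all tested genes.

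The oligoadenylate synthetases make the second messenger that activates RNase L. Oas2 stood at 1.20 FPKM in knockout liver and 0.700 FPKM in wildtype liver (0.77 ± 0.40 SE, p = 0.0523 in the authors' deposited table). Oas1a stood at 2.43 FPKM in knockout liver and 1.59 FPKM in wildtype liver, and Oas3 at 0.817 FPKM in knockout liver and 0.616 FPKM in wildtype liver. The related Oasl1 and Oasl2 had log2 ratios of 0.15 ± 0.25 and 0.15 ± 0.34 (SE). Oas2, Oas3, Oas1g and Oas1a lie together on chromosome 5 between 120730333 and 120907525 (mm10). Of the 50-base words in Oas1a transcripts 57.6% also occur in Oas1g (GENCODE M21), and no source used here says how the authors handled such reads, so these values are uncertain one by one.

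The Ifit genes, whose proteins bind viral RNA ends, lie side by side on chromosome 19 between 34550694 and 34650009 (mm10). Ifit1, Ifit2 and Ifit3 had log2 ratios of 0.11 ± 0.32, -0.01 ± 0.38 and 0.11 ± 0.30 (SE). Ifit3 stood at 5.04 FPKM in knockout liver and 4.66 FPKM in wildtype liver, and it shares 51.2% of its 50-base words with Ifit3b. Ifit3b itself, listed as I830012O16Rik (a synonym per RefSeq), stood at 1.04 FPKM in knockout liver and 1.31 FPKM in wildtype liver. The ratios of all 3 Ifit members were smaller than their errors.

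Among the remaining effectors, Rsad2 (viperin), an enzyme that makes a chain-terminating nucleotide, stood at 2.09 FPKM in knockout liver and 1.52 FPKM in wildtype liver. Mx2, a dynamin-like GTPase, stood at 1.77 FPKM in knockout liver and 1.22 FPKM in wildtype liver (0.53 ± 0.40 SE). Parp14, an ADP-ribosyltransferase, stood at 5.51 FPKM in knockout liver and 5.34 FPKM in wildtype liver. Bst2, the most abundant member, had a log2 ratio of 0.28 ± 0.24 (SE).

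Isg15 encodes a ubiquitin-like protein that is linked to other proteins, and Usp18 the protease that removes it and also damps the type I receptor. Isg15 (chromosome 4, 156199424 to 156200818, mm10) stood at 24.3 FPKM in knockout liver and 16.9 FPKM in wildtype liver (0.52 ± 0.28 SE, p = 0.0650 in the authors' deposited table). Usp18 stood at 9.87 FPKM in knockout liver and 7.42 FPKM in wildtype liver (0.41 ± 0.27 SE). Neither passed. Of 5 tested genes for ISG15 conjugation 0 passed and 1 had an unadjusted p under 0.05 in the authors' deposited table. This was Ube2l6, the conjugating enzyme, at 76.6 FPKM in knockout liver and 56.0 FPKM in wildtype liver.

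The guanylate-binding proteins, large GTPases that coat and break open microbe-holding vacuoles, lay on both sides of wildtype, and none passed. Gbp7 stood at 2.03 FPKM in knockout liver and 2.48 FPKM in wildtype liver (-0.29 ± 0.28 SE) and Gbp3 at 2.68 FPKM in knockout liver and 2.95 FPKM in wildtype liver (-0.14 ± 0.32 SE). Gbp2 and Gbp6 had ratios of 0.25 ± 0.35 and 0.25 ± 0.32 (SE). Gbp7, Gbp3 and Gbp2 lie in 1 cluster on chromosome 3 between 142530338 and 142638008 (mm10). Of the 50-base words of Gbp6 transcripts 70.7% occur in another gene's transcripts, so its value is uncertain.

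The immunity-related GTPases had the narrowest range of any class with more than 3 members, with log2 ratios between 0.18 and 0.26. Irgm1, a regulator of the family in mice, stood at 24.6 FPKM in knockout liver and 20.5 FPKM in wildtype liver (0.26 ± 0.23 SE). Igtp (Irgm3) stood at 17.3 FPKM in knockout liver and 14.7 FPKM in wildtype liver, and Irgm2 at 11.5 FPKM in knockout liver and 9.76 FPKM in wildtype liver. Iigp1, an effector GTPase that loads onto parasite vacuoles in mice, had a ratio of 0.18 ± 0.26 (SE). Of 12 tested genes on a list of others of both GTPase families 0 passed, and 0 had an unadjusted p under 0.05 in the authors' deposited table. Their median log2 ratio was 0.24. Irgq had the smallest p of these, at 3.60 FPKM in knockout liver and 4.70 FPKM in wildtype liver. Ifi47, an immunity-related GTPase on another list, did not pass but had p = 0.00453 in the authors' deposited table (0.78 ± 0.27 SE).

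The last 3 members did not pass either. Ifi27l2a, a small mitochondrial protein, stood at 32.1 FPKM in knockout liver and 28.0 FPKM in wildtype liver. Rtp4 stood at 8.50 FPKM in knockout liver and 8.10 FPKM in wildtype liver, and Ifi44 at 1.68 FPKM in knockout liver and 1.38 FPKM in wildtype liver. None of the 3 had an unadjusted p under 0.05 in the authors' deposited table.

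**Figure D3:**
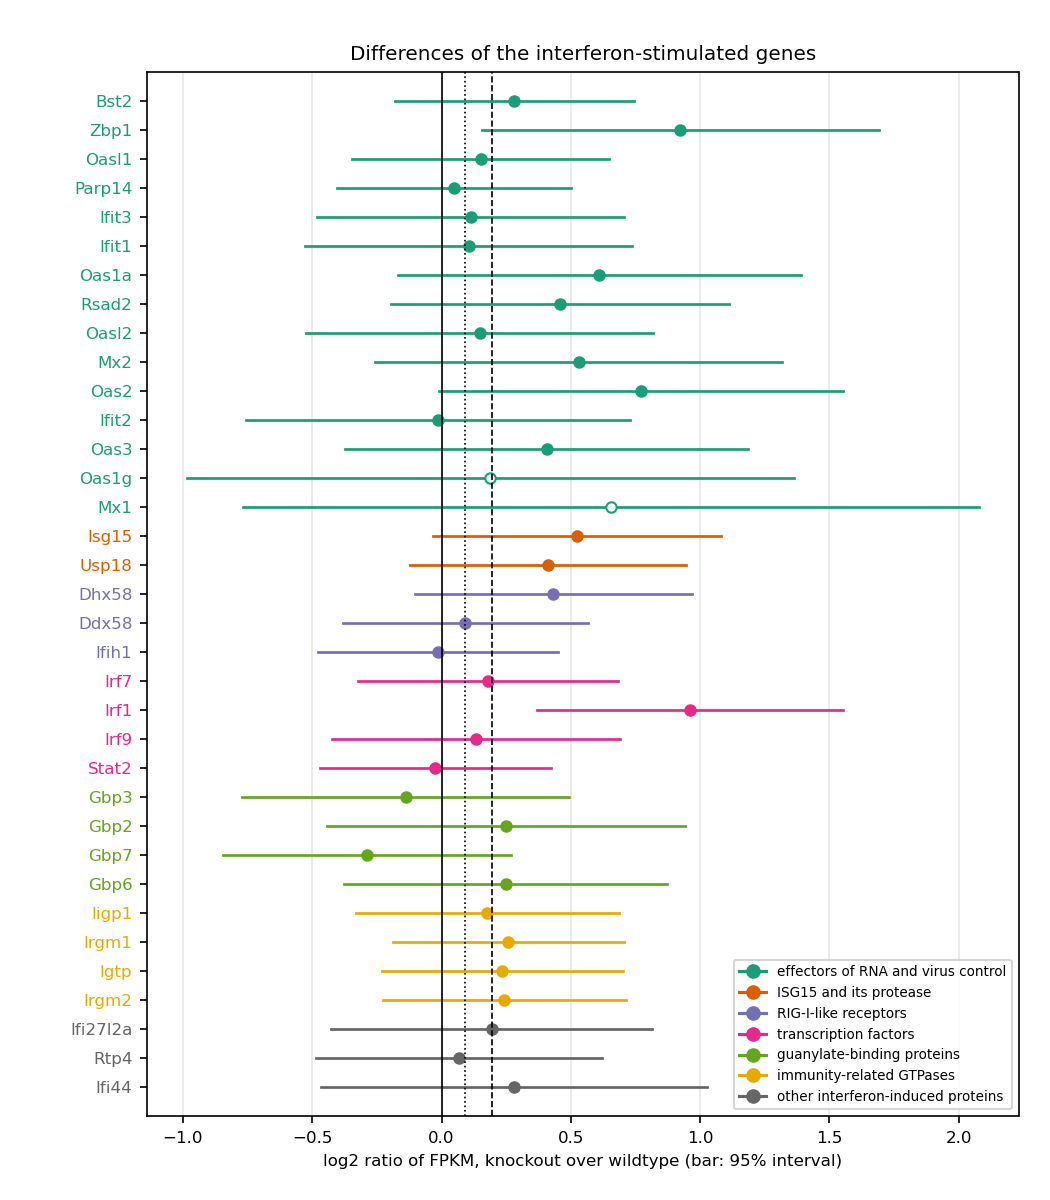
Log2 ratio of knockout over wildtype for each of the 35 members with the 95% interval from the authors' z statistic; open symbols mark Mx1 and Oas1g, which were not tested. The solid line is at 0, and the dashed and dotted lines show where 0 would lie if both groups had the same summed FPKM with and without the acute phase list. Among tested members the intervals of Irf1 and Zbp1 alone lie wholly above 0.

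The errors set what could have been seen. The SE of the tested members ran between 0.23 and 0.40, and a log2 ratio of at least 0.79 for Stat2 and 1.39 for Mx2 would have been needed for a call. For 24 of the 33 tested members the 95% interval lay below a log2 ratio of 1, and for all 33 it lay above -1. Changes of the size that most members show could not have been called at these errors.

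The direction of the small ratios rests on how the groups are scaled. The listed FPKM summed to 646306 in knockout liver and 564749 in wildtype liver. Dividing each group by its sum moved the median log2 ratio of all tested genes to -0.20, against -0.0012 as deposited, and that of the members to 0.04. Members above 0 then numbered 17 of 33. Called genes were 66 higher and 58 lower in knockout liver as deposited, and 49 higher and 140 lower with equal sums. The members' median stood 0.24 above that of all tested genes as deposited, a difference that scaling by 1 factor per group cannot change. It was 0.22 with quantile normalization, 0.20 with a minimum mean of 1 FPKM and 0.17 with a pseudocount of 1.

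**Figure D4:**
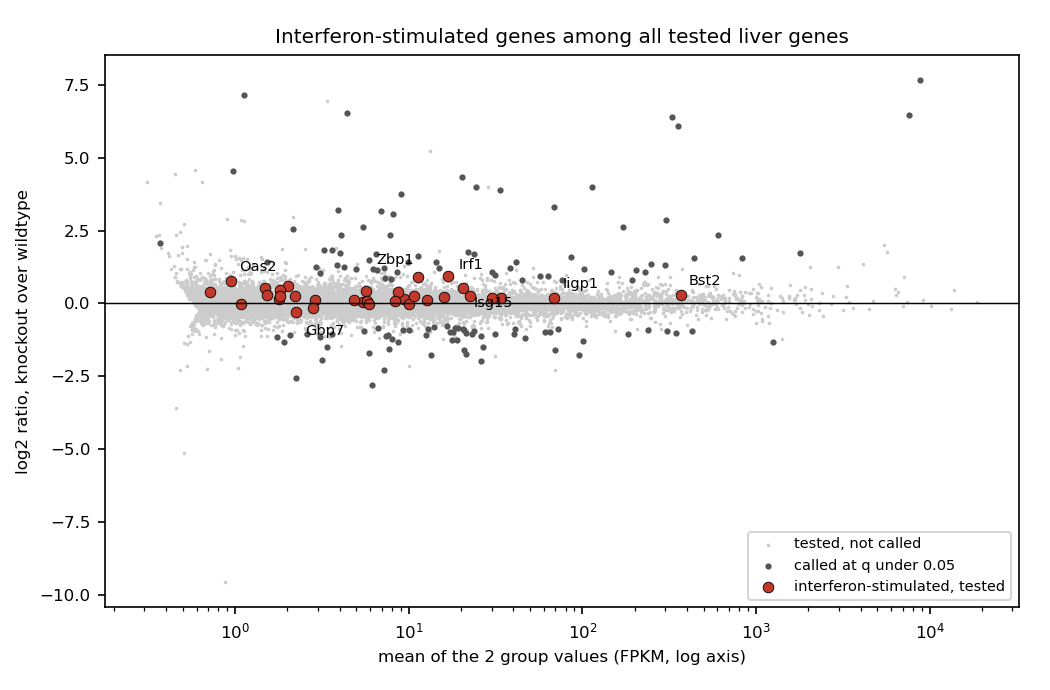
Log2 ratio of knockout over wildtype against mean FPKM (log axis) for tested genes with a finite ratio; dark points are called genes and red points the 33 tested members. The members lie in the dense band around 0, between -0.29 and 0.96.

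Ratios of other interferon-stimulated genes were also mostly small. Of 69 tested genes on a second list, which shares no gene with the members, 0 passed and 4 had an unadjusted p under 0.05 in the authors' deposited table, all higher. Their median log2 ratio was 0.22, and 59 of the 69 ratios were above 0 as deposited. Of all tested genes 49.9% had a larger value in knockout liver, and 2.82% were higher at an unadjusted p under 0.05 in the authors' deposited table. With equal summed FPKM the median of all 125 tested other interferon pathway genes was -0.019, beside -0.20 for all tested genes. Cxcl10, a chemokine for T cells that interferon and NF-kB induce, stood at 7.19 FPKM in knockout liver and 2.83 FPKM in wildtype liver (1.35 ± 0.43 SE, q = 0.115 in the authors' deposited table). Ifi47, an immunity-related GTPase, stood at 14.8 FPKM in knockout liver and 8.61 FPKM in wildtype liver. Ly6e, a surface protein that restricts coronaviruses, stood at 275 FPKM in knockout liver and 174 FPKM in wildtype liver. Slfn2 stood at 3.43 FPKM in knockout liver and 1.90 FPKM in wildtype liver.

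The feedback inhibitors held the 1 called gene among all 125 tested other interferon pathway genes, beside 1.08% called of all tested genes. Socs3, which blocks receptors of the interleukin-6 family, rose to 12.97 FPKM in knockout liver, against 2.55 FPKM in wildtype liver (log2 ratio 2.35 ± 0.29 SE, q = 5.90e-13 in the authors' deposited table). Socs1, which blocks JAK kinases below interferon receptors, stood at 1.74 FPKM in knockout liver and 0.609 FPKM in wildtype liver (1.51 ± 0.59 SE, p = 0.0104 and q = 0.390 in the authors' deposited table). The other 9 tested inhibitors did not pass, and the list's median was 0.04.

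A list of 20 targets of interleukin-6 and NF-kB was chosen with earlier results of these data known. Its counts and median therefore describe the list and cannot serve as a test. Of 18 tested 12 rose, 0 fell and 6 did not pass, with a median log2 ratio of 1.93. Of all tested genes 0.573% were called higher. The 12 were Saa1, Saa2, Saa3, Orm1, Orm2, Lcn2, Cxcl1, Ccl2, Nfkbiz, Icam1, Junb and Socs3, and Hp, Fgb and Nfkbia had an unadjusted p under 0.05 in the authors' deposited table. Junb, an AP-1 subunit, rose to 36.3 FPKM in knockout liver, against 11.1 FPKM in wildtype liver. Icam1, an adhesion receptor that interferon gamma induces as well, rose to 11.6 FPKM in knockout liver, against 5.53 FPKM in wildtype liver. The 12 were picked by passing a test that small ratios do not pass, and no member passed it, so the 12 alone are not set against the members. The 6 that did not pass had log2 ratios between -0.38 and 2.01, with Hp at the top. The largest log2 ratio of a member was 0.96, for Irf1. The difference between the lists was not tested.

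**Figure D5:**
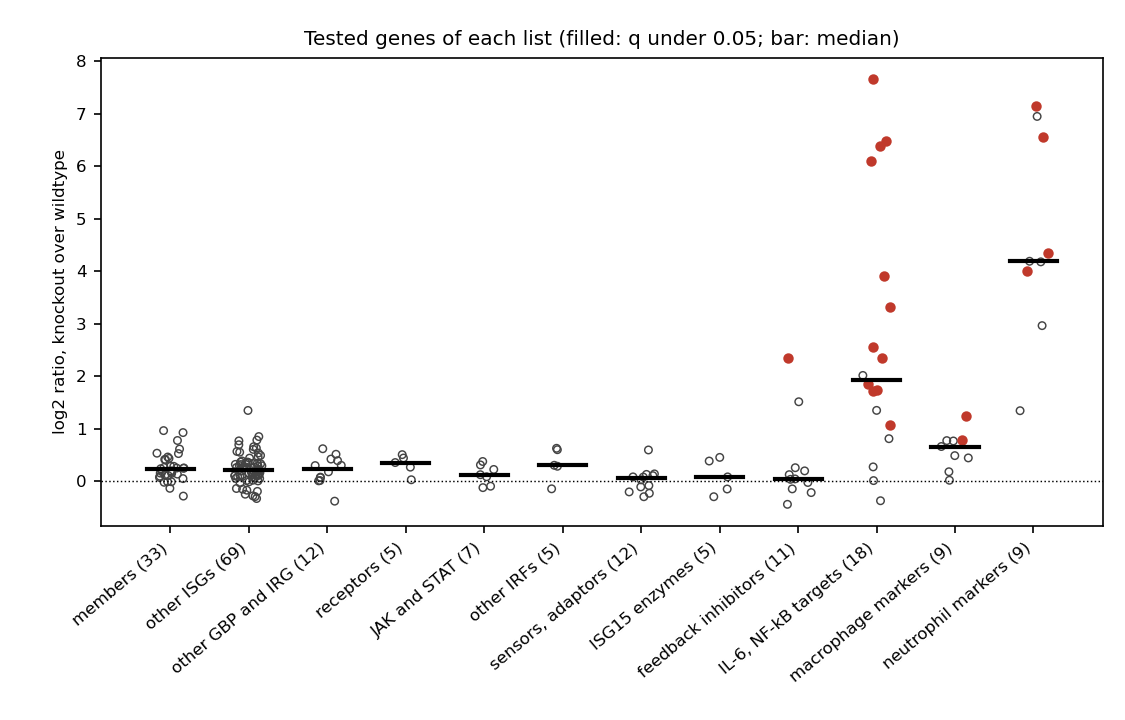
Log2 ratio of knockout over wildtype for the tested genes of each list, with the number tested in brackets; filled points passed at q under 0.05 and bars are medians. The members and most other interferon lists sit near 0, with medians between 0.04 and 0.35, and the list of interleukin-6 and NF-kB targets has a median of 1.93. All lists were chosen with earlier results of these data known, and differences between them were not tested.

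Among the immune cell lists, only those of neutrophils and of macrophages and Kupffer cells held called genes. Of 9 tested neutrophil markers 4 rose (S100a8, S100a9, Ngp and Ltf), beside 0.573% of all tested genes called higher. The 10 listed summed to 109 FPKM in knockout liver and 6.28 FPKM in wildtype liver. Of 9 macrophage and Kupffer cell markers Marco and C1qa rose. All 9 values were larger in knockout liver, with log2 ratios between 0.02 for Timd4 and 1.24 for Marco. They summed to 497 FPKM in knockout liver and 312 FPKM in wildtype liver. Mpo, Retnlg, Csf3r and Camp of the neutrophil list and C1qb, C1qc, Cd5l and Clec4f of the macrophage list had an unadjusted p under 0.05 in the authors' deposited table, all higher. In both lists 0 markers were at 0 in both groups. T and NK cell markers, from the usual sources of interferon gamma (Il2rb had the smallest p of the 4 tested), summed to 4.62 FPKM in knockout liver and 4.65 FPKM in wildtype liver. Siglech, a marker of the plasmacytoid dendritic cells that secrete type I interferon, stood at 0.192 FPKM in knockout liver and 0.0404 FPKM in wildtype liver, and was not tested. Of that list 0 passed and Irf8 had the smallest p of the 3 tested; Bst2, a member, is on it too. Of the other cell lists 0 genes passed. At an unadjusted p under 0.05 in the authors' deposited table were Fgb (hepatocyte) and Tff3 (intestine), higher, and Ehd3 (endothelium), Reln and Lrat (stellate cells), lower. Cd79b was the 1 tested gene of the B cell list, and Ly6c2 had the smaller p of the 2 tested monocyte and dendritic cell markers. The part of these cells in the values of Irf1, Zbp1 and the other members was not tested.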

How the data were processed

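RNA of 6 mouse livers was sequenced as single-end reads of 50 nt from TruSeq libraries, per the labels' protocols and the design text. The aligner Bowtie2 and the build mm10 are listed, per the submitters' processing notes; the counting program, strand handling and the treatment of multi-mapped reads are not given in the sources used here. The authors deposited FPKM values, scaled by transcript length and depth with 1 value per group, in a table whose header names no unit: the unit was taken from its Cuffdiff layout. A short list of differential genes drawn from it was not used. The z-like test score, p-value and q-value are those of the authors' deposited table. The p equals the two-sided normal p of that score to within 2.63e-06, and the q its Benjamini-Hochberg adjustment over 11515 genes to within 1.99e-06. The deposited log2 ratio runs the other way, with wildtype on top per the file headers, and was not used: ratios were recomputed as knockout over wildtype. Read totals, and so depth, are unknown. The table holds 0 columns of other samples.

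The planned fit on values per library was not made, since the table holds none, and the authors' own test was used in its place. The SE is the ratio divided by the score, and 95% intervals are the ratio ± 1.96 SE; both come from the authors' model. The design text names 3 pairs of mice without saying which mice form a pair. Coordinates are the table's with 1 added to each start. The 50-base words were compared among GENCODE M21 transcripts. Named genes are all members and, of each other list, called genes, those at an unadjusted p under 0.05 and the smallest p; Ifnar1, Ifnar2, Ifnb1, Ifng, Siglech, Junb, Icam1, Ifit3b, Fabp2 and Cdx2 were added after their values were seen. Members and lists were chosen with earlier results of these data known. Alternatives were 3 scalings, 2 pseudocounts, a filter, 2 thresholds and 1 added scaling. The calling step was tested on simulated data with noise drawn from the SE of the authors' test. That run cannot check whether the SE matches the spread between mice. Python 3.11.15, pandas 2.3.3, NumPy 2.4.6 and SciPy 1.17.1 were used. 1 gene of the lists is not reported here.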

Additional observations from a re-analysis of the deposited data

How the results depend on the processing

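Under each alternative scaling and under a minimum mean of 1 FPKM, 0 members were called in either direction and 1 other interferon pathway gene was called higher, the same counts as in the deposited values. At q under 0.1 in the authors' deposited table Irf1 was the 1 member called, beside 0.738% of all tested genes called higher. At an unadjusted p under 0.05 in that table there were 2 of 33 members and 9 of 125 other pathway genes, all higher. Of all tested genes 2.82% were higher at that p. With equal summed FPKM in both groups the members' median log2 ratio was 0.0403 and 17 were above 0, and the median of the other pathway genes turned to -0.0189. There 11 signs turned, none of a called gene: Ifit1 (-0.0896), Ifit3 (-0.0821), Oasl1 (-0.0432), Oasl2 (-0.0471), Irf7 (-0.0156), Irf9 (-0.0624), Ifi27l2a (-0.00095), Rtp4 (-0.13), Ddx58 (-0.10), Parp14 (-0.15) and Iigp1 (-0.0178). With the same sum taken without the acute phase list, an alternative chosen after seeing the data, the medians were 0.15 and 0.0867, and Rtp4 (-0.0201) and Parp14 (-0.0425) turned. Quantile normalization turned Ifih1 (0.0032). Both sum scalings subtract 1 amount from every ratio (0.19 and 0.09); the cause of the quantile value was not tested. Calls over all tested genes were 66 higher and 58 lower as deposited, and 49 higher and 140 lower with equal sums, 56 and 85 with the second sum. Leaving out a library was not run, since each group has 1 value. No paired analysis was possible because the labels do not say which mice form a pair and the table holds no value per library. Depth is unknown, so levels under 1 FPKM carry no counting interval.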
